A study of Mus musculus with 4 samples.

Results

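The potassium channel genes of adult-born granule cells of the mouse dentate gyrus are described here across the stages of their maturation. All genes of the deposited expression table whose symbol starts with Kcn were taken, which gave 63 of 13353 genes. They comprise 61 protein-coding genes and 2 antisense RNAs (Kcnd3os and Kcnmb4os2). The protein-coding genes encode pore-forming subunits, modulatory subunits and the auxiliary Kcnab, Kcnip and Kcnmb subunits. The rule used the symbol alone. Of the 63 genes, 55 passed the filter on low counts and were tested, and the 8 others (Kcnab3, Kcnd1, Kcnj12, Kcnj2, Kcnk9, Kcnn1, Kcns2 and Kcnv2) are described by their levels only.

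Single nuclei came from mice of both sexes that carried a tamoxifen-inducible Cre and the CAGfloxStop-Sun1/sfGFP reporter on a C57BL/6J background. In these mice tamoxifen (TAM) marks the nuclear envelope of cells with active Cre at the time of injection and of their progeny. The age stated for the mice was 6 to 8 weeks. Tissue was taken at set times after TAM, so age at collection rose with the week if that is the age at induction. There was 1 library for each time after induction, at 1, 2, 4 and 8 weeks (w1, w2, w4 and w8). Each library was a pool of left dentate gyri from 4 mice, and its nuclei were sorted for GFP, so every library carries the same Cre driver, reporter and TAM treatment and no library lacks them. Any cell that descends from a cell with active Cre can hold the label, and glia and vascular cells were also recovered. The deposited annotation has 13 clusters, which run from radial glia-like cells (RGL) through neural progenitor cells (NPC), neuroblasts (NB1, NB2) and immature granule cells (GCimm1, GCimm2) to young (GCyoung) and mature granule cells (GCmat1, GCmat2), beside astrocytes (Astro), oligodendrocyte precursors (OPC), oligodendrocytes (Oligo) and a cluster labelled pericytes (Peri).

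Potassium channels set the resting potential of a neuron, repolarize its action potentials and shape its firing. A channel is an assembly of pore-forming subunits, and many take up auxiliary subunits that change gating or trafficking. Granule cells are known for a negative resting potential and sparse firing when mature, whereas newborn ones have a high input resistance and are easily excited.

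The libraries held 2867, 4243, 3831 and 3426 annotated nuclei (w1 to w8), with medians of 4369, 5053, 6239 and 7704 unique molecular identifiers (UMIs) per nucleus, and 1 to 6 barcodes were shared by each pair of libraries. Levels are given as UMIs per 1000000 UMIs of the same nuclei (CPM), and the depth behind a cluster ranged from 45 oligodendrocyte nuclei to 3356 GCmat1 nuclei. Only sums of at least 10 nuclei were tested, which GCyoung and GCmat2 reached in w4 and w8 only (the 9 GCyoung and 9 GCmat1 nuclei of w2 were not tested), and GCmat1 held 17 nuclei in w1, 403 in w4 and 2927 in w8. Clusters and weeks are therefore largely confounded late in the course. The paper places the maturity of adult-born granule cells later than w1. Whether the 17 GCmat1 nuclei of w1 were of cells born after induction was not tested, and all levels given for GCmat1 of w1 rest on them. The granule cell markers Calb1, Icam5 and Ntng1 summed to 29.7 CPM in RGL and 662 in GCmat1. The astrocyte markers summed to more in RGL than in Astro (5052 and 3729 CPM). Most of both sums was Slc1a3 (4784 and 2575 CPM), and Aqp4, Grin2c, Aldh1l1, Gja1 and Gfap were each higher in Astro than in RGL. Markers of interneurons, microglia and endothelium summed to at most 98.4, 53.3 and 50.4 CPM in any cluster from RGL to GCmat2. The mossy cell markers Calb2 (also a neuroblast marker) and Drd2 summed to 391 CPM in NB2, where the CA3 marker Grik4 was at 775 CPM. Nectin3, also on the CA3 list, gave no value. The part of other cells in the results was not tested. The cluster labelled Peri held the vascular leptomeningeal markers Slc6a13 (648 CPM), Dcn (259 CPM), Col1a2 (401 CPM) and Ranbp3l (2009 CPM), with a sum of 3317 CPM over that list. Of the pericyte markers, Tbx18 was at 313 CPM, Pdgfrb at 101, Abcc9 at 6.32, Kcnj8 at 3.16 and Rgs5 at 0, with a sum of 423 CPM that was the highest of any cluster. It is called the Peri cluster below as a name only.

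Among the genes called from GCimm2 to GCyoung were the pair Kcnip4 and Kcnd2, which rose, and the pair Kcnh8 and Kcnmb2, which fell. Whether the genes of a pair move together was not tested, and at other steps they could differ. Their promoter windows are shown for that reason, 250 bases before to 50 bases after the annotated start, as RefSeq gives them on GRCm38.p6. Capitals mark matches to 4 motifs searched on both strands, so that a match on the other strand is marked as its reverse complement. They were the cyclic AMP response element (TGACGTCA), the shorter site it contains (TGACG), an E-box of basic helix-loop-helix factors (CAGATG) and the Egr motif (GCGTGGG).
Kcnip4, chr5:49285610-49285909, minus strand: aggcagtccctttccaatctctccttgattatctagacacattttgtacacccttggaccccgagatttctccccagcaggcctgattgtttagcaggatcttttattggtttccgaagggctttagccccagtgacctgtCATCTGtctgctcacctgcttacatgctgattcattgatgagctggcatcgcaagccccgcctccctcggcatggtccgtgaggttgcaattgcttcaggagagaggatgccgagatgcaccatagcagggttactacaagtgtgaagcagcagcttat
Kcnd2, chr6:21215096-21215395, plus strand: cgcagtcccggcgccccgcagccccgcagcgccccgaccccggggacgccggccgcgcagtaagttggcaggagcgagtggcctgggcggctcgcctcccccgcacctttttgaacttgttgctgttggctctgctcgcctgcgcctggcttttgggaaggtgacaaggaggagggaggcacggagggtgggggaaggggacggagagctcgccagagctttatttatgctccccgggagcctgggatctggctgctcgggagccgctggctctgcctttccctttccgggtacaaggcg
Kcnh8, chr17:52602459-52602758, plus strand: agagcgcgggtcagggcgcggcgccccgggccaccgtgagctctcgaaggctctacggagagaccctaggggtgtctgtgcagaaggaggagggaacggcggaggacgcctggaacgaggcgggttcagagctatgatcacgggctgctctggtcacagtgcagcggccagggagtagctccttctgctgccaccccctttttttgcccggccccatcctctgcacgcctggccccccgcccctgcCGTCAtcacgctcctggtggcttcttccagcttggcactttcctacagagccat
Kcnmb2, chr3:31902453-31902752, plus strand: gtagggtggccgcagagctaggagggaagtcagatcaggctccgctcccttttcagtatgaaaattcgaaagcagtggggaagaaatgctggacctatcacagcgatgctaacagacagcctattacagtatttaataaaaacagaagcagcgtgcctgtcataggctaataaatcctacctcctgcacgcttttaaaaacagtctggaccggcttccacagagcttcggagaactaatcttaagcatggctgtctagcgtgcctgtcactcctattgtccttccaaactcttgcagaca
The Kcnip4 window is 1 of 2 windows listed for that gene and lies within the gene as annotated (chromosome 5, 48389502 to 49524907), and it held 1 CAGATG. The Kcnh8 window held 1 TGACG, and the Kcnd2 and Kcnmb2 windows held no match. GC content differed between partners of each pair, at 51% in Kcnip4 and 68.7% in Kcnd2, and at 66% in Kcnh8 and 47.7% in Kcnmb2, against a median of 52.7% over all 32851 windows. RefSeq windows were found for 45 of the 63 genes, 64 windows in all. TGACG was in 13 of these 64 (20.3%) against 20.8% of all windows, CAGATG in 10 (15.6%) against 17.2%, GCGTGGG in 5 (7.81%) against 5.04%, and TGACGTCA in 0 against 1.79%.

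The summed level of the 63 genes grew from 3601 CPM in RGL and 4026 CPM in NPC to 6596 CPM in NB1, 10047 CPM in GCimm2, 21324 CPM in GCyoung and 24775 CPM in GCmat1. Kcnip4 made up 48.5% of the sum in GCmat1, and without it the sums of GCyoung and GCmat1 were 12419.7 and 12753 CPM. Among the 63 genes, the one with the most UMIs, not corrected for length, changed along the course, from Kcnn2 in RGL to Kcnq5 in NPC, Kcnh7 in NB1, NB2 and GCimm1, Kcnd2 in GCimm2 and Kcnip4 from GCyoung onwards. Kcnb2, a gene that the expression table leaves out, exceeded Kcnh7 in NB1, NB2 and GCimm1, at 2366, 2737 and 1782 CPM. Per kilobase of gene, the scale on which levels of different genes are compared here, Kcna5 was highest from NB1 to GCmat2, with 17.7 CPM per kb in GCmat1 beside 10.6 for Kcnip4 and 10.3 for Kcnd2. That rank depends on the division by gene length. Not corrected for it, Kcna5 was at 50.6 CPM in the GCmat1 libraries tested, beside 12027 for Kcnip4 and 5306 for Kcnd2. Among the 9 clusters from RGL to GCmat2, 17 genes had their highest level in GCmat2, 10 in GCmat1 and 9 in GCyoung, while 5 peaked in RGL, 4 in NPC, 1 in NB1 (Kcnh7), 5 in NB2, 6 in GCimm1 and 6 in GCimm2.

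**Figure D1:**
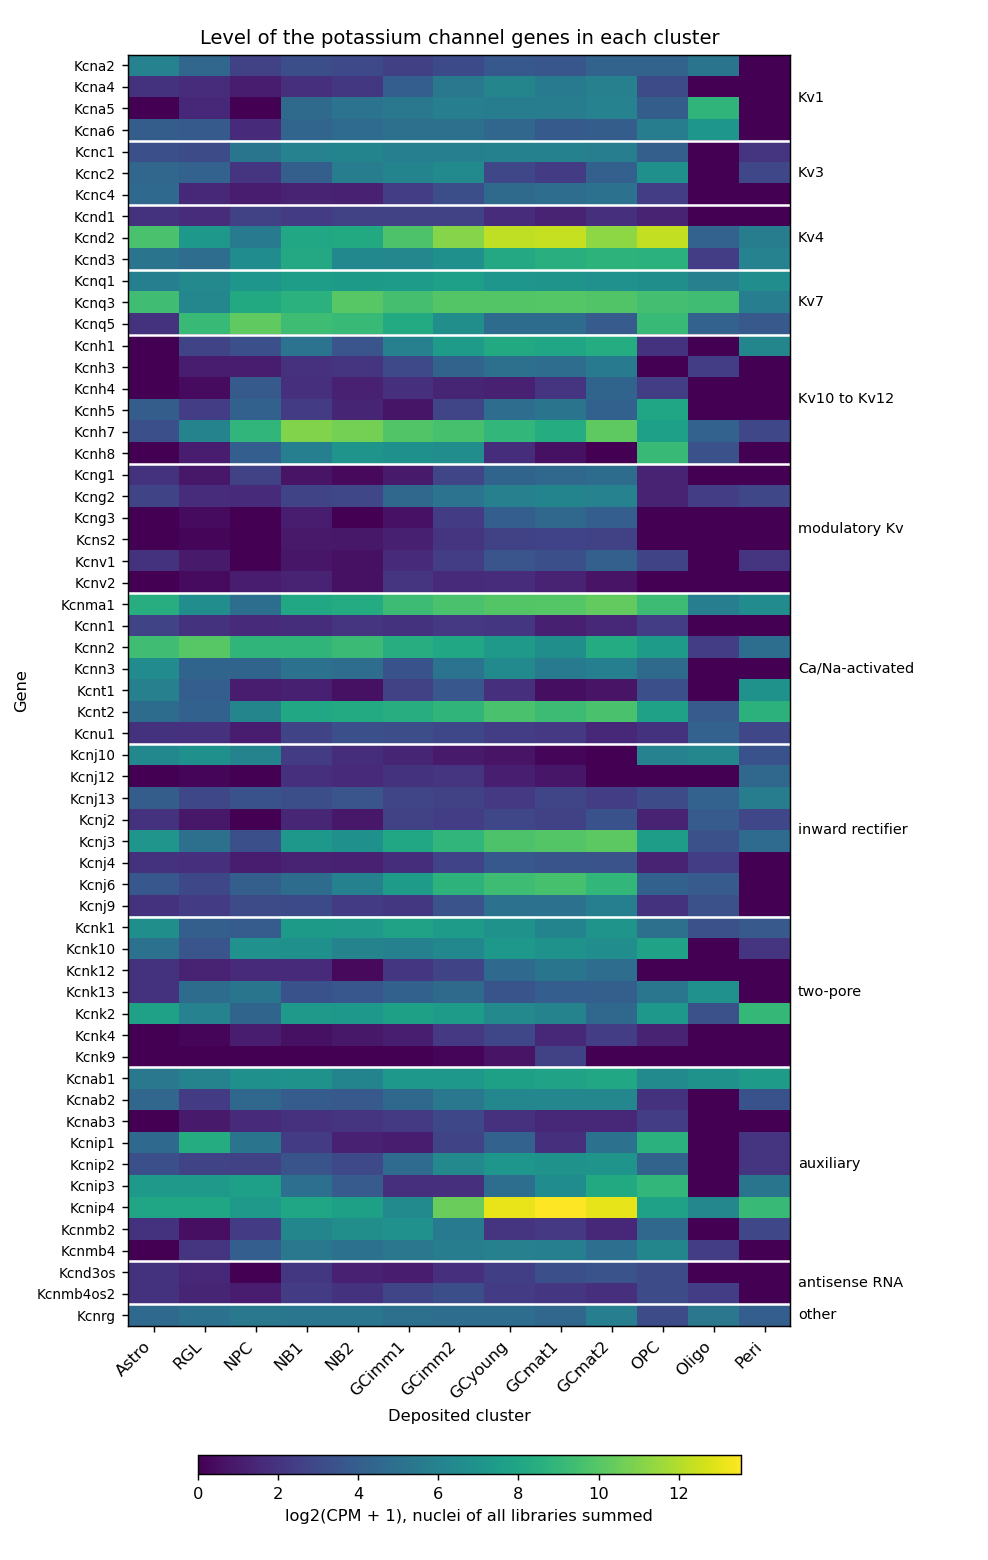
Level of 59 of the 63 potassium channel genes (rows, grouped by subfamily) in the 13 clusters (columns), as log2(CPM + 1) with the nuclei of all libraries summed. Kcnip4 is brightest in GCyoung, GCmat1 and GCmat2, Kcnd2 in GCyoung, GCmat1 and OPC, Kcnq5 is brightest in NPC and Kcnh7 in NB1.

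Neighbouring clusters were compared on UMIs summed per library and cluster with edgeR's quasi-likelihood test, and a gene was called where its fold change was 1.5 or more and its adjusted p, over all 13513 genes tested, was 0.05 or less. Since the authors drew the clusters from these nuclei's expression, a call describes a difference between clusters and is not independent of their definition. Of the 55 genes tested, 50 were called in at least 1 of the 9 neighbouring comparisons. The same count over all genes was not made, so 50 of 55 cannot be read as particular to potassium channel genes. The 5 that were called in none were Kcnj13, Kcnj4, Kcnmb4os2, Kcnu1 and Kcnv1.

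RGL differed from astrocytes mostly by lower levels. Of the 55 genes, 6 were higher in RGL (5.63% of all genes tested were) and 11 lower (4.51% of all). Kcnq5, a Kv7 subunit, was near absent in astrocytes with 1 UMI against 3524 in RGL, a CPM ratio of 194 with a counting interval of 34.7 to 7650. The calcium-binding subunit gene Kcnip1 was also higher in RGL (log2 change 3.87, SE 0.43, adjusted p = 4.03e-10). Kcnq3 (log2 change -2.97, SE 0.26, adjusted p = 2.16e-13), Kcnd2 (log2 change -2.37, SE 0.26, adjusted p = 2.29e-10) and Kcnma1 (log2 change -1.72, SE 0.25, adjusted p = 4.69e-07) were lower. With 67 astrocyte nuclei in all, the count rested on w2, without which 11 rather than 17 genes were called. The median change of all genes was 0.35 here and 0.07 with relative log expression (RLE) size factors in the same fit, under which 4 genes were higher and 12 lower, and the call of Kcnn2 was among those lost.

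At the step from RGL to NPC, 14 genes were higher and 14 lower, beside 14.4% and 14.8% of all genes. All 3 libraries with both clusters shared the sign for 10 of the higher genes and 13 of the lower ones. The Kv7 genes Kcnq3 and Kcnq5 were among those higher in NPC. The other increases included Kcnk10, a mechanosensitive two-pore channel (log2 change 3.13, SE 0.30, adjusted p = 1.24e-12), and Kcnh7 of the ERG family (log2 change 2.58, SE 0.26, adjusted p = 7.92e-12). Kcnip1 fell (log2 change -3.58, SE 0.29, adjusted p = 2.86e-15), as did the calcium-activated channels Kcnn2 (log2 change -1.52, SE 0.24, adjusted p = 1.03e-06) and Kcnma1 (log2 change -2.35, SE 0.35, adjusted p = 3.01e-07). Without w1, 18 genes were called in place of 28.

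NB1 nuclei held more potassium channel RNA than NPC nuclei. Of the 55 genes, 22 were higher (14.8% of all) and 9 lower (14.5% of all), and the median change was 1.06 against 0.07 over all genes. All 3 libraries with both clusters shared the sign for 21 of the higher genes and 5 of the lower ones. Among genes with more than 3 UMIs in the NPC libraries tested, the largest increases were those of Kcnj3 (log2 change 4.65, SE 0.57, adjusted p = 1.29e-09), Kcnh8 (log2 change 3.94, SE 0.53, adjusted p = 2.38e-08) and Kcnma1 (log2 change 3.89, SE 0.33, adjusted p = 2.35e-14). They rested on 6, 4 and 21 NPC UMIs. Counting intervals of their CPM ratios overlapped (10.2 to 60.7, 4.98 to 47.2 and 7.93 to 19.6), so their order is uncertain. Kcnmb2 had 2 UMIs in those NPC libraries and 800 in NB1, a CPM ratio of 33 with a counting interval of 9.11 to 273. Kcna5 had no UMI in NPC and was at least 7.46-fold higher in NB1, taking 3 UMIs over the NPC nuclei as the floor. The decreases included Kcnj10, the inward rectifier of glia (log2 change -3.73, SE 0.33, adjusted p = 1.22e-13), Kcnip1 (log2 change -2.88, SE 0.48, adjusted p = 2.05e-06) and Kcnip3 (log2 change -2.32, SE 0.24, adjusted p = 1.19e-11).

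Between NB1 and NB2, 4 genes were higher in NB2 (1.72% of all) and 5 lower (1.16% of all). Of these, 3 higher genes and all 5 lower ones had the same sign in the 3 libraries with both clusters. Kcnc2 (log2 change 1.77, SE 0.29, adjusted p = 1.82e-05), Kcnq3 (log2 change 1.31, SE 0.23, adjusted p = 6.33e-05), Kcnj6 (log2 change 1.25, SE 0.28, adjusted p = 0.00312) and Kcnh8 (log2 change 0.93, SE 0.19, adjusted p = 0.000971) were higher. Kcnd3 was lower in NB2 (log2 change -1.82, SE 0.20, adjusted p = 2.42e-09), and so were Kcnh1, Kcnip3, Kcnk10 and Kcnab1 with log2 changes of -1.55, -1.12, -0.70 and -0.69. The calls of Kcnj6 and Kcnip3 were lost without w1 or w2, that of Kcnh1 without w1, and those of Kcnk10 and Kcnab1 without any 1 of w1, w2 and w4. The count of 9 fell to 3 without w1, to 5 without w2 and to 4 (1 higher and 3 lower) with DESeq2.

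From NB1 to GCimm1, 20 genes rose (7.79% of all) and 10 fell (4.72% of all). From GCimm1 to GCimm2, 21 rose (6.48% of all) and 2 fell (2.85% of all), and from GCimm2 to GCyoung, 26 rose (8.65% of all) and 8 fell (10.1% of all). Libraries with both clusters shared the sign for 17, 21 and 24 of the rising genes at these steps, and for all falling ones. The median changes of the 55 genes were 0.48, 0.63 and 0.79 at these steps, where those of all genes were -0.01, -0.02 and 0.00. Among the 10 genes that rose at all 3 steps were Kcna4, Kcnab2, Kcnd2, Kcng2, Kcnh1, Kcnh3, Kcnip2, Kcnj3 and Kcnj6. Of the 55 genes, Kcnq5 alone fell at all 3. How many of all genes tested rose or fell at all 3 was not counted, so these counts have no baseline. Kcnc2, Kcnh8, Kcnk2 and Kcnmb2 were higher in NB1 than in NPC and fell again from GCimm2 to GCyoung. Without w2 the first 2 counts fell from 30 to 15 and from 23 to 10, with the calls of Kcna4, Kcnj3, Kcnh3 and Kcnh7 among those lost at the first and those of Kcnq5, Kcnmb2, Kcnj9 and Kcnh3 at the second. Without w4, which left GCyoung with 188 nuclei of w8 and GCimm2 with w2 and 28 nuclei of w8, the third fell from 34 to 7. The calls of Kcnip4, Kcnip3, Kcnq5, Kcnd3, Kcnn3 and Kcnab2 held in those libraries, whereas Kcnd2 had a log2 change of 1.23, Kcnh8 of -2.31, Kcnmb2 of -2.19 and Kcnc2 of -2.02 (adjusted p = 0.0526, 0.381, 0.212 and 0.164, edgeR). The calls of Kcna4, Kcnc4, Kcnh5, Kcnj3, Kcnj9, Kcnk2, Kcnk10, Kcnk12 and Kcnk13 at that step were lost as well, with the direction kept. DESeq2 called 18 genes at the first step and 19 at the third.

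GCmat1 differed little from GCyoung, with 2 genes higher (1.56% of all) and 5 lower (2.24% of all). Kcnip3 (log2 change 1.42, SE 0.22, adjusted p = 5.17e-06) and the antisense RNA Kcnd3os (log2 change 1.24, SE 0.35, adjusted p = 0.0261) were higher in GCmat1. Kcnip1 (log2 change -2.70, SE 0.32, adjusted p = 2.26e-08), Kcnt1, Kcnk4, Kcnh7 and Kcnn3 were lower, and apart from Kcnip3 and Kcnip1 each of the 7 calls was lost without w4 or without w8. DESeq2 called 2 of the genes, 1 in each direction, and leaving out w2, w4 or w8 left 4, 3 or 4. Over the whole postmitotic course, from NB1 to GCmat1, 33 genes were higher (19.5% of all) and 8 lower (20.5% of all), with a median change of 1.38 against -0.07 over all genes. Only w1 and w4 had tested sums of both clusters, with 17 and 403 GCmat1 nuclei, while most GCmat1 nuclei were of w8. Whether the 17 GCmat1 nuclei of w1 were of cells born after induction was not tested. The paper places the maturity of adult-born granule cells later than w1. The sign was the same in w1 and w4 for 31 of the 33 and for all 8, and the share of w1 in this carries that limit. By subfamily, all 4 modulatory genes and both Kv4 genes were higher, as were 3 of 4 Kv1 genes (Kcna2, Kcna4 and Kcna5) and the Kv3 gene Kcnc4. Of the 6 inward rectifier genes, 4 were higher (Kcnj3, Kcnj4, Kcnj6 and Kcnj9) and Kcnj10 lower, and of the 8 auxiliary genes, 6 were higher (Kcnab1, Kcnab2, Kcnip2, Kcnip3, Kcnip4 and Kcnmb4) and Kcnmb2 lower. The 6 Kcnh genes split into 3 higher (Kcnh1, Kcnh3 and Kcnh5) and 2 lower (Kcnh7 and Kcnh8), the 6 calcium- and sodium-activated genes into 3 higher (Kcnma1, Kcnn3 and Kcnt2) and 1 lower (Kcnn2), and the 6 two-pore genes into 2 higher (Kcnk10 and Kcnk12) and 1 lower (Kcnk1, a call lost without any 1 of the libraries). Of the Kv7 genes, Kcnq3 was higher and Kcnq5 lower. Fitted changes could exceed the ratios of summed CPM. Kcnd3 had a log2 change of 0.64 and a CPM ratio of 1.30, and Kcnk10 had 0.76 and 1.12.

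**Figure D2:**
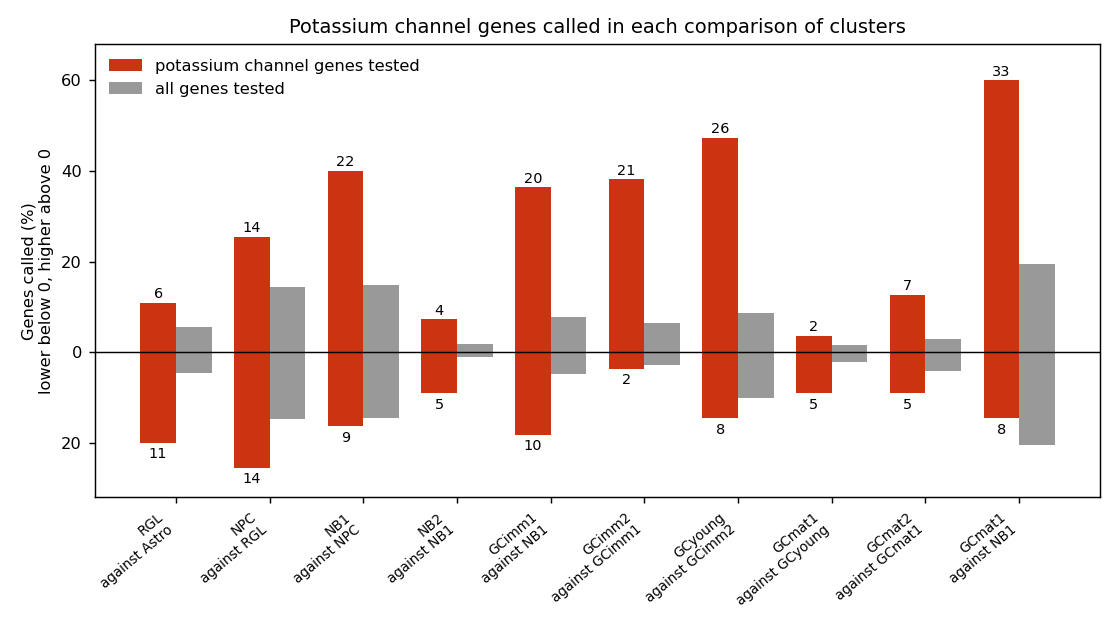
Percentage of genes called higher (above 0) and lower (below 0) in each comparison of clusters, for the 55 potassium channel genes tested (red, with the number of genes) and for all 13513 genes tested (grey). The red bars exceed the grey ones in both directions except for lower genes from NB1 to GCmat1.

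Kv4 channels carry an A-type current of neurons, and the Kcnip genes encode the calcium-binding proteins that join them. Kcnip4 was low until GCimm1 and then rose in 2 large steps. In GCimm1 it stood at 59.5, 78.2 and 136 CPM in w1, w2 and w4. In GCimm2 it was at 1766, 655 and 473 CPM in w2, w4 and w8. In GCyoung it reached 9026 CPM in w4 and 7718 in w8, and in GCmat1 it was at 12135, 10051 and 12308 CPM in w1, w4 and w8. The libraries of GCimm1, GCimm2 and GCyoung did not overlap. The earlier NB1 level came in large part from few nuclei. Those above 2000 CPM, a limit chosen after the values were seen, were 27 of 1492 nuclei in w1, 29 of 956 in w2 and 5 of 130 in w4, and they held 426 of 1090, 1108 of 1529 and 69 of 174 UMIs, while the median nucleus had none. As a sum over all nuclei, Kcnip4 first fell from NB1 to GCimm1 (log2 change -1.58, SE 0.34, adjusted p = 0.000493), then rose to GCimm2 (log2 change 3.45, SE 0.36, adjusted p = 1.38e-10) and to GCyoung (log2 change 3.48, SE 0.38, adjusted p = 1.66e-10).

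Kcnd2, a Kv4 pore gene, climbed more evenly. Its level was 248 to 312 CPM over the NB1 libraries, 554 to 1045 in GCimm1, 2083 to 2518 in GCimm2 and 4805 to 4828 in GCyoung. It was called at each of these steps, with log2 changes of 1.64, 1.5 and 1.31 (SE 0.24, 0.24 and 0.26). Kcnd3, the other Kv4 gene tested, had an early peak in NB1 and a later rise. It was at 311, 246 and 271 CPM in NB1 of w1, w2 and w4, at 99.2, 73.3 and 86.8 in GCimm1, and at 287 and 292 in GCyoung of w4 and w8. Per kilobase, Kcnd3 made up 81.6% of the summed Kcnd2 and Kcnd3 level in NPC and 70.8% in NB1, and Kcnd2 83.1% in GCimm1 and 86% in GCmat1. The lead of Kcnd3 in NB1 depends on the division by gene length. Not corrected for length, Kcnd3 was at 285 CPM and Kcnd2 at 274 in the NB1 libraries tested. Kcnd3 was the higher in w1 (311 against 248 CPM) and Kcnd2 in w2 (312 against 246 CPM). Kcnd3 shares its locus with the antisense gene Kcnd3os, whose level was at most 10.3 CPM.

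The other Kcnip genes followed courses of their own. Kcnip3, whose protein also binds DNA and presenilins, fell to near 0 and came back. It was at 197 CPM in NPC, at 1.53, 1.92 and 6.77 CPM in GCimm1 of w1, w2 and w4, and at 115, 52.4 and 99.5 CPM in GCmat1 of w1, w4 and w8. The fall from NB1 to GCimm1 (log2 change -3.33, SE 0.32, adjusted p = 5.01e-12) and the rise from GCimm2 to GCyoung (log2 change 3.31, SE 0.37, adjusted p = 3.48e-10) were both called. Kcnip2 rose with Kcnd2, by log2 changes of 1.06, 1.80 and 0.98 at the 3 steps to GCyoung. Along the granule cell course Kcnip1 was highest in RGL, at 418, 372, 194 and 156 CPM in w1 to w8, and at 1.13 CPM in GCimm1. The gene that led the 4 Kcnip genes per kilobase thus changed from Kcnip3 in NPC (86.6% of their sum) to Kcnip2 in GCimm1 (90.1%) and Kcnip4 in GCmat1 (62.7%). The lead of Kcnip2 depends on the division by gene length. Not corrected for length, Kcnip4 was at 84.4 CPM and Kcnip2 at 25.4 in the GCimm1 libraries tested.

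**Figure D3:**
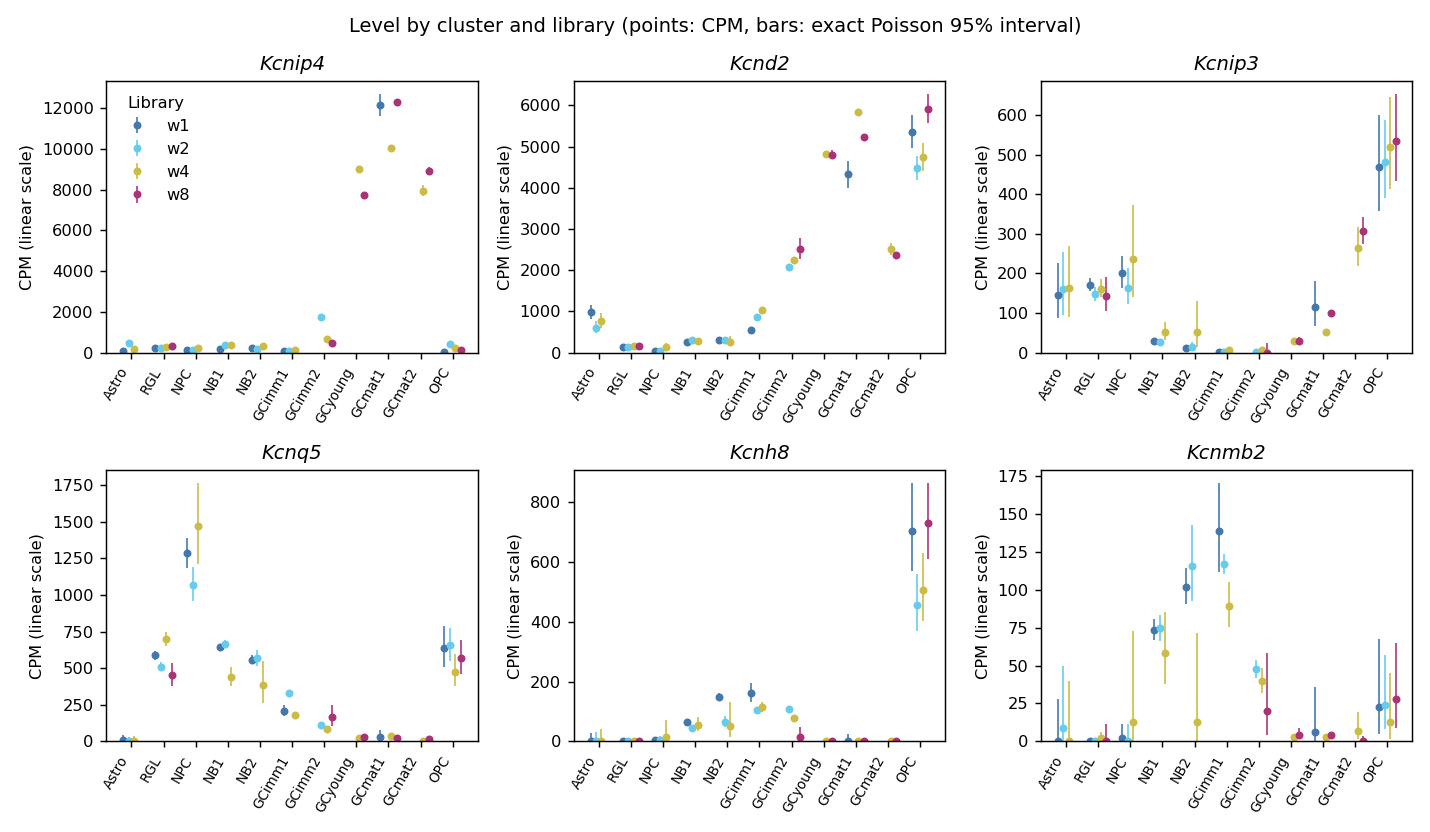
Level of 6 genes by cluster and library, in CPM on linear axes with exact Poisson 95% intervals as bars, which cover counting error only. Kcnip4 and Kcnd2 are high from GCyoung onwards, Kcnip3 dips in GCimm1 and GCimm2, Kcnq5 falls from NPC onwards, and Kcnh8 and Kcnmb2 are above 10 CPM from NB1 to GCimm2 and under 7 CPM in GCyoung, GCmat1 and GCmat2.

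Kv7 channels underlie the M-current, which acetylcholine inhibits through muscarinic receptors. Kcnq5 declined from NPC to GCyoung. Its level was 1285, 1069 and 1468 CPM in NPC of w1, w2 and w4, 645, 667 and 439 in NB1, 208, 330.3 and 182 in GCimm1, and 26 and 29.3 in GCyoung of w4 and w8. These 4 clusters did not overlap. Log2 changes from NPC to NB1, NB1 to GCimm1, GCimm1 to GCimm2 and GCimm2 to GCyoung were -0.80, -1.14, -1.02 and -1.57 (SE 0.21 to 0.29), all called (the first not without w4, the third not without w2), and from NB1 to GCmat1 the change was -3.54. Kcnq3, another M-channel subunit, stood at 406, 409.5 and 309 CPM in NB1 of w1, w2 and w4 and at 1149, 724 and 1191 in NB2. Per kilobase, Kcnq5 held 55% of the Kv7 sum in RGL and 0.788% in GCmat1, where Kcnq3 held 55.7%. Kcnq1, which overlaps the antisense RNA Kcnq1ot1, was between 81.5 and 197 CPM from RGL to GCmat2.

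The Kcnh genes encode the EAG, ERG and ELK channels, of which the ERG channels recover quickly from inactivation on repolarization and then close slowly. Kcnh7, an ERG gene, peaked in NB1, with 2211, 1753 and 2048 CPM in NB1 of w1, w2 and w4. It stood at 66.1 CPM in RGL before that peak and at 205, 307 and 335 CPM in GCmat1 of w1, w4 and w8 after it, a fall from NB1 to GCmat1 of 2.20 on the log2 scale (SE 0.26). Kcnh8, an ELK gene, was transient. It was at 4.01, 3.08 and 13.1 CPM in NPC of w1, w2 and w4, from 4 UMIs (10 more lay in the 2 NPC nuclei of w8), and at 64.3, 45.7 and 56 CPM in NB1 of w1, w2 and w4. It was then at 162, 105 and 114 CPM in GCimm1 of w1, w2 and w4, at 109.5, 77.2 and 13.3 CPM in GCimm2 of w2, w4 and w8, and at 2.22 and 2.79 CPM in GCyoung of w4 and w8. The change from GCimm2 to GCyoung was the largest of the 8 decreases at that step (log2 change -4.91, SE 0.32, adjusted p = 2.29e-17). That rank rested on w4, without which the log2 change of Kcnh8 was -2.31 and that of Kcnt1 was -2.58. The EAG gene Kcnh1 and the ELK gene Kcnh3 rose at all 3 steps from NB1, to 297 and 31.3 CPM in GCyoung. Kcnh5, the second EAG gene, fell to 0.68 CPM in GCimm1 and rose to 27.8 CPM in GCyoung (log2 change 2.42, SE 0.35, adjusted p = 2.66e-07), a call lost without w4 (log2 change 1.65, adjusted p = 0.25).

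BK channels combine the pore encoded by Kcnma1 with beta subunits, of which Kcnmb2 inactivates the channel and Kcnmb4 is the neuronal form. Kcnma1 rose from 28.5 CPM in NPC to 263, 313 and 302 CPM in NB1 of w1, w2 and w4, and to 521, 621 and 667 CPM in GCimm1 (log2 change 1.17, SE 0.20, adjusted p = 7.1e-06). Kcnmb2 had a transient course instead. It was at 2, 0 and 13.1 CPM in NPC of w1, w2 and w4, at 139, 117 and 89.2 in GCimm1, and at 2.79 and 4.18 in GCyoung of w4 and w8. It fell at the steps to GCimm2 (log2 change -1.14, SE 0.20, adjusted p = 2.55e-05) and GCyoung (log2 change -3.36, SE 0.33, adjusted p = 8.14e-12), while Kcnmb4 passed the test at neither. Per kilobase, Kcnmb2 made up 35% of the Kcnmb2 and Kcnmb4 sum in GCimm1 and 0.983% in GCyoung. Not corrected for length, Kcnmb2 exceeded Kcnmb4 in GCimm1, at 117 against 39.2 CPM in w2 and 89.2 against 46.8 in w4.

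SK channels, encoded by the Kcnn genes, give the afterhyperpolarization that follows calcium entry. Kcnn2 was highest in RGL, at 1282, 828, 915 and 1339 CPM in w1 to w8, and lowest along the granule cell course in GCmat1, at 32, 76 and 112 CPM in w1, w4 and w8. It was lower in GCmat1 than in NB1 (log2 change -1.90, SE 0.26, adjusted p = 1.95e-08), although no step between NPC and GCyoung was called on its own. Kcnn3 went the other way, with a dip in GCimm1 (9.67 CPM) and increases to GCimm2 (log2 change 2.00, SE 0.23, adjusted p = 7.44e-10) and GCyoung (log2 change 1.57, SE 0.21, adjusted p = 3.21e-08). The share of Kcnn2 in the Kcnn2 and Kcnn3 sum per kilobase was 93% in GCimm1 and 39.7% in GCyoung. Not corrected for length, Kcnn2 stayed above Kcnn3 in GCyoung, at 151 against 84.1 CPM in w4 and 159 against 107 in w8. The sodium-activated channel gene Kcnt2 rose from 17.5 CPM in RGL to 283 in NB1 and 813 in GCyoung, and its relative Kcnt1 stayed at or under 15.6 CPM from RGL to GCmat2.

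The inward rectifiers include a glial gene, Kcnj10, and the G protein-gated (GIRK) genes. Kcnj10, whose channel buffers potassium in astrocytes, was at 108, 120.3, 111 and 63.7 CPM in RGL of w1 to w8 and at 3.93, 4.65 and 4.48 CPM in NB1 of w1, w2 and w4. The GIRK genes Kcnj3 and Kcnj6 encode the channels opened by GABAB and adenosine receptors, and both rose at all 3 steps from NB1 to GCyoung. Kcnj6 was at 24.7, 29.8 and 35.8 CPM in NB1 of w1, w2 and w4, at 41.2, 171 and 228 in GCimm1 and at 662 and 638 in GCyoung of w4 and w8. The libraries of these clusters did not overlap, and the log2 change from NB1 to GCmat1 was 5.07 (SE 0.27). Both had risen already from NPC to NB1, Kcnj3 by a log2 change of 4.65 and Kcnj6 by 2.31 (SE 0.64, adjusted p = 0.00378), and the log2 change of Kcnj3 from NB1 to GCmat1 was 2.85. Kcnj9, the third GIRK gene, was not called before the steps to GCimm2 (log2 change 1.62, SE 0.33, adjusted p = 0.000242) and to GCyoung, where its log2 change was 1.66 (SE 0.29). Per kilobase the GIRK sum in GCmat1 was 46% Kcnj3, 29.5% Kcnj9 and 24.5% Kcnj6, and that in GCimm1 was 61%, 14.4% and 24.6%. The share of Kcnj9 depends on the division by gene length. Not corrected for length, Kcnj9 was at 33.6 CPM in the GCmat1 libraries tested, beside 966 for Kcnj3 and 793 for Kcnj6.

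The course within clusters was followed along the pseudo-time that the authors deposited, in bins of at least 20 nuclei per library. Kcnh7 was highest in the bin centred at 11.9 in w1, w2 and w4, at 2186, 1865 and 2363 CPM. Kcnj6 stood at 22.3 CPM in that bin of w2 and at 790.5 and 806 CPM in the last bin of w8 and w4. Kcnc2 was at 75.6 CPM in the bin centred at 17.1 of w2 and at 1.79 CPM in the bin centred at 27.7 of w4. The libraries differed for Kcnq3 in the bin centred at 17.1, at 1178, 704 and 900.1 CPM in w1, w2 and w4.

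**Figure D4:**
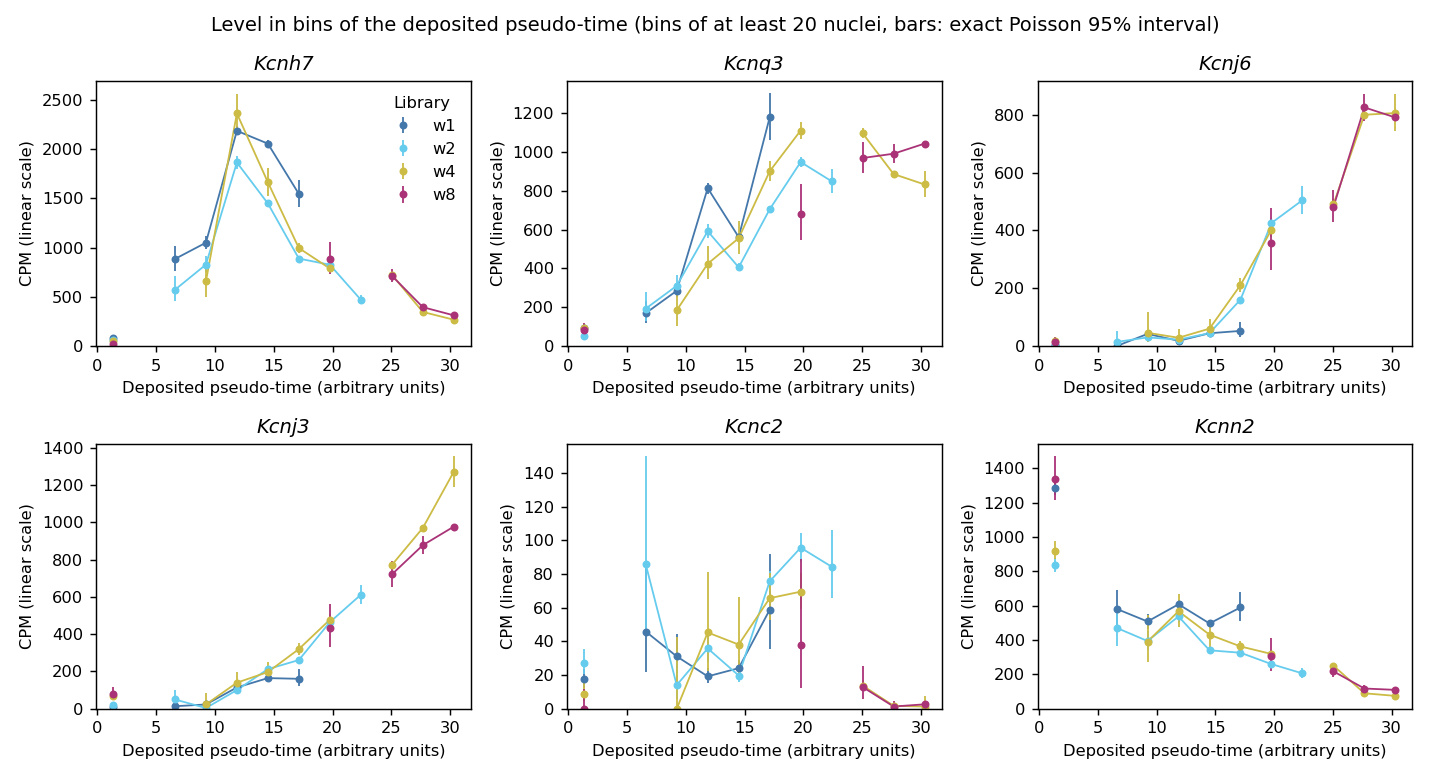
Level of 6 genes (CPM, linear axes) in bins of the deposited pseudo-time (arbitrary units), 1 colour per library, with exact Poisson 95% intervals. Kcnh7 peaks near 12 and Kcnc2 between 17 and 23, Kcnj6 and Kcnj3 climb from about 15 onwards, and Kcnn2 is highest in the first bin.

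Two-pore (K2P) channels carry background potassium current. Of the 6 tested, Kcnk1 (log2 change 3.84, SE 0.42, adjusted p = 8.59e-11) and Kcnk2 (log2 change 3.24, SE 0.35, adjusted p = 5.55e-11) were higher in NB1 than in NPC, with 220.1 and 207 CPM in GCimm1. Kcnk2, a mechanosensitive channel of the TREK family, then fell at the step to GCyoung (log2 change -0.84, SE 0.22, adjusted p = 0.00419), where Kcnk10 of the same family rose (log2 change 1.10, SE 0.21, adjusted p = 4.71e-05). Kcnk12 also rose there (log2 change 1.85, SE 0.35, adjusted p = 5.44e-05), and its close relative Kcnk13 fell (log2 change -1.14, SE 0.33, adjusted p = 0.00792). Kcnk9, an acid-sensitive channel that was too rare to test, had 161 UMIs in all nuclei, of which 149 were in GCmat1, 11 in GCyoung and 1 in GCimm2, so that its level was 5.1 CPM in GCmat1 and at most 0.635 CPM in the other clusters.

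Among the Kv1 and Kv3 genes, Kcna4, whose channel inactivates rapidly, rose at each step from NB1 to GCyoung. Kcna4 was at 2.67, 2.69 and 2.24 CPM in NB1 of w1, w2 and w4 and at 73.3 and 52.3 CPM in GCyoung of w4 and w8. The Kv3 gene Kcnc2 was transient, being at 51.9, 69.9 and 69.6 CPM in GCimm1 of w1, w2 and w4 and at 6.08 and 6.27 CPM in GCyoung of w4 and w8 (log2 change -3.17, SE 0.32, adjusted p = 2.84e-11). At the same step Kcnc4 rose, by a log2 change of 1.62, and Kcnc1 was not called. Over the whole course from NB1 to GCmat1, the lower call of Kcnc2 (-1.29) was lost without w1, and the change turned to 0.30 without w4.

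Modulatory subunits form no channel alone and alter other Kv channels when they join them. All 4 that were tested were higher in GCmat1 than in NB1, by log2 changes of 5.04 (Kcng1), 3.58 (Kcng2), 4.75 (Kcng3) and 2.94 (Kcnv1). Their levels in GCmat1 were 23, 68.8, 22.2 and 8.74 CPM. Of the Kcnab genes, whose cytoplasmic proteins bind Kv1 channels, Kcnab2 rose at all 3 steps to GCyoung and Kcnab1 at the last (log2 change 0.80, SE 0.19, adjusted p = 0.00129). Kcnrg, whose protein hinders the assembly of Kv channels, was between 21.2 and 55.1 CPM from RGL to GCmat2, and it overlaps Dleu2 on the other strand.

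GCmat2 had 7 genes higher than GCmat1 (2.97% of all) and 5 lower (4.2% of all), with a median change of all genes of -0.14 that became -0.03 with RLE size factors. Kcnd2 was at 2518 and 2360.5 CPM in GCmat2 of w4 and w8, where GCmat1 had 5833 and 5237 (log2 change -1.15, SE 0.27, adjusted p = 0.00249). Kcnj6, Kcnmb4, Kcnk2 and Kcnh5 were also lower. Kcnip3 stood at 265 and 307 CPM in GCmat2 of w4 and w8 (log2 change 1.75, SE 0.20, adjusted p = 3.43e-09), Kcnh7 at 1008 and 1249 (log2 change 1.94, SE 0.26, adjusted p = 1.12e-07) and Kcnn2 at 385 and 301 (log2 change 1.91, SE 0.27, adjusted p = 4.46e-07). In both weeks the 2 clusters lay apart for each of these genes. Kcnip1, Kcnh4, Kcnc2 and Kcnrg were higher too, with log2 changes of 3.57, 2.78, 1.92 and 1.35. The calls of Kcnd2, Kcnmb4 and Kcnh5 were lost without w4 or w8, that of Kcnj6 without w4 and those of Kcnc2 and Kcnh4 without w8.

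**Figure D5:**
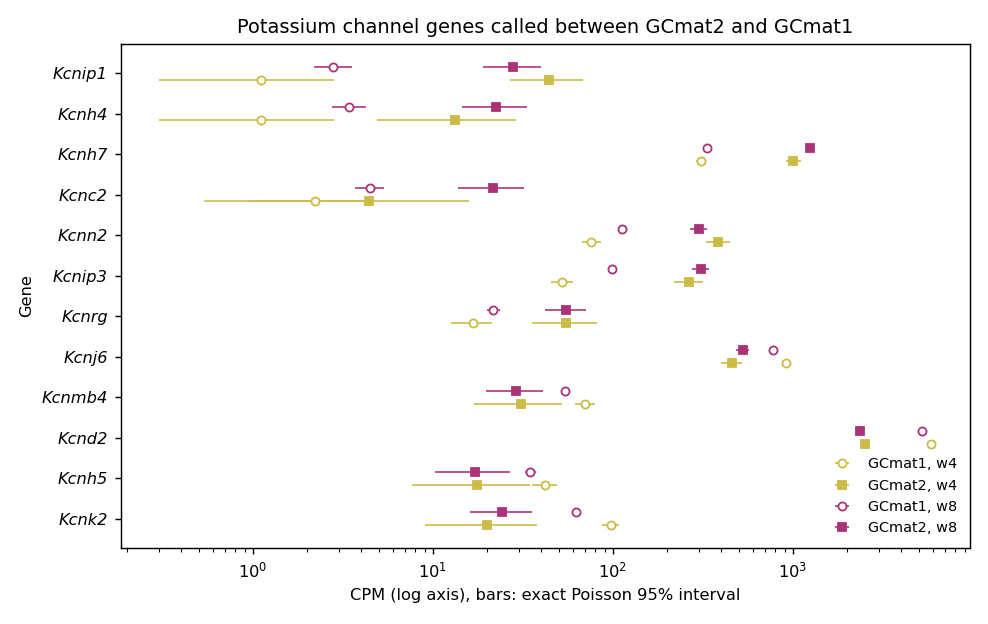
Level (CPM, log axis) of the 12 potassium channel genes called between GCmat2 (squares) and GCmat1 (circles) in w4 and w8, with exact Poisson 95% intervals. Examples with both squares to the right of both circles are Kcnip1, Kcnh7, Kcnn2, Kcnip3 and Kcnrg. Examples with both squares to the left are Kcnd2 and Kcnj6.

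The paper left GCmat2, and GCmat1 nuclei that expressed ventral genes strongly, out of the pseudo-time. It counts more such GCmat1 nuclei than lack a pseudo-time here, and whether they are the same nuclei was not tested. In w8, 216 GCmat1 nuclei had no pseudo-time and 2711 had one. Both sets came from 1 library, so the comparison has no replicate. Of 54 members with at least 50 UMIs, 8 were at least 1.5-fold higher in the nuclei without pseudo-time (4.48% of all genes) and 4 lower (3.88% of all), with counting intervals that did not overlap. Kcnmb2 was at 20.4 CPM against 2.18, Kcnc2 at 22.1 against 2.62 and Kcnk13 at 65.9 against 12.3. These are genes that were low in GCmat1 as a whole. Kcnk1 was lower, at 28.4 against 69.1 CPM, and Kcnt2 likewise at 319 against 649, whereas Kcnip4 was nearly equal (12492 against 12288 CPM).

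Within a cluster, weeks could be set side by side but not tested, since each week was 1 pool. Genes with at least 50 UMIs over both libraries were counted at a CPM ratio of at least 1.5, whether or not their counting intervals overlapped. The shares of all genes follow that same rule. No share of all genes was computed for intervals that lay apart, so those counts have no baseline. In RGL, 4 of 22 members were higher in w8 than in w1 (7.57% of all genes) and 3 lower (15.3%), of which 3 and 2 had intervals that did not overlap. Kcnip1 was among the lower ones (156 CPM in w8 and 418 in w1) and Kcnj3 among the higher ones (79.7 and 11.7 CPM). In NB1 of w2 against w1, 1 of 38 members was higher (Kcnip4, 374 against 171 CPM, 8.23% of all) and 4 lower (3.69%), of which 1 and 2 had intervals apart. In GCimm1 of w4 against w2, 4 of 45 were higher (3.37%) and 3 lower (10.5%), among them Kcnq5 with 182 CPM in w4 and 330.3 in w2, and the intervals of 2 and 1 lay apart. GCyoung of w8 differed from that of w4 in 3 higher (5.11%) and 5 lower (11.2%) of 54 members, all of them under 30 CPM and all with intervals that overlapped. In GCmat1 of w8 against w4, 7 of 55 were higher (11.6%) and 4 lower (7.25%), and Kcnip3 was among the higher ones (99.5 against 52.4 CPM); intervals lay apart for 2 and 3. In GCmat2, 1 of 31 was higher in w8 (9.36%) and 3 lower (6.96%), with intervals apart for 0 and 2.

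Genes that work beside the channels were taken as a list of 45, of which 34 were tested. They include Kv auxiliary and anchoring proteins, BK gamma subunits (none tested), regulators of ATP-sensitive channels, GIRK partners, the sodium-potassium pump and cation-chloride cotransporters, and the counts also take in genes of the list that are not reported here. Higher and lower calls are given with the shares of all genes tested. They numbered 4 (5.63%) and 3 (4.51%) from Astro to RGL, 4 (14.4%) and 10 (14.8%) from RGL to NPC, 13 (14.8%) and 3 (14.5%) from NPC to NB1, and 2 (1.72%) and 1 (1.16%) from NB1 to NB2. From NB1 to GCimm1 there were 7 (7.79%) and 1 (4.72%), from GCimm1 to GCimm2 9 (6.48%) and 1 (2.85%), and from GCimm2 to GCyoung 7 (8.65%) and 5 (10.1%). From GCyoung to GCmat1 there were 0 (1.56%) and 4 (2.24%), from GCmat1 to GCmat2 5 (2.97%) and 3 (4.2%), and from NB1 to GCmat1 11 (19.5%) and 8 (20.5%). Dpp6, the transmembrane partner of Kv4 channels, was at 379.6 CPM in NB1 and 1468 in GCmat1, and Dlg2, a scaffold that anchors Kv1 channels, at 444 and 6200.1 (log2 change 4.00, SE 0.29, adjusted p = 2.98e-17). Ank3, which anchors Kv7 channels at the axon initial segment, rose from NPC to NB1 (log2 change 5.86, SE 0.33, adjusted p = 9.87e-21). The chloride exporter gene Slc12a5 was higher in GCmat1 than in NB1 (log2 change 4.59, SE 0.29, adjusted p = 1.17e-19). Of the 4 cation-chloride cotransporter genes tested, it was the only 1 called higher there, and the other 3 were called lower.

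Outside the granule cell course, OPC, Oligo and the Peri cluster were not tested. OPC held 5089 CPM of Kcnd2, where GCmat1 held 5299 CPM, together with 502 CPM of Kcnip3 and 589 CPM of Kcnh8, which were the highest levels of these 2 genes in any cluster. Oligodendrocytes, with 45 nuclei, had 473 CPM of Kcna5 (95% interval 387 to 574), and no other cluster exceeded 64.1 CPM. In the Peri cluster of 60 nuclei, Kcnk2 was at 528, Kcnt2 at 420.1 and Kcnt1 at 120.0 CPM.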

How the data were processed

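Nuclei were sequenced on the 10x Chromium platform, and the authors aligned reads with STARsolo 2.7.4a to mm10 (GRCm38) and deposited UMI counts over exons and introns per nucleus, without multimapping reads. Whether counting used strand is not given in the sources used here, and 22 of the 63 genes overlap a gene on the other strand. The authors removed low-quality nuclei, doublets and, in w4, nuclei of a putative outlier mouse. Their deposited log2 expression values (counts over size factors, plus 1) cover features found in more than 1% and fewer than 80% of nuclei. Libraries were processed as a pair of time points per day, and which ones is not given in the sources used here. No column of other samples was present.

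Members, lists and comparisons were chosen with earlier results of these data known. Deposited counts were summed per library and cluster where at least 10 nuclei were present (29 sums, 16 residual degrees of freedom) and tested with edgeR 4.0.16 (R 4.3.3; filterByExpr, TMM, cluster and library terms, Benjamini-Hochberg adjustment), after a test on simulated data. The p-values measure how far differences between clusters varied from library to library, with the spread shared over all clusters of the fit. With 1 pool per week, no spread between replicate pools of a week was measured. DESeq2 1.42.0, another filter, thinning to 2000 UMIs, mean log2 values and each library left out served as alternatives. Any member could be named, in full the 15 largest called changes per direction with the same sign in every library and at least 50 UMIs, and of the partner list at most 3 called genes per direction. Lengths for CPM per kb are those of the whole annotated gene, and the order of genes per kb can differ from that in UMIs. Intervals (95%, exact Poisson) and floors (3 UMIs) cover counting error only. Levels of different nuclei were not corrected for free RNA. Some genes of the lists are not reported here.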

Additional observations from a re-analysis of the deposited data

Results flagged for a closer look

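The deposited count files hold 99 features whose symbol starts with Kcn, and 36 of them are outside the expression table, of which 26 had more than 3 UMIs. Kcnb2, a Kv2 pore gene, is outside it because a UMI was found in 86.2% of nuclei. It had 131782 UMIs and was at 9.67 CPM in RGL, 459 in NPC, 2366 in NB1, 2737 in NB2 and 1088 in GCmat1. Kcnj16, an inward rectifier that pairs with Kcnj10, is outside it because a UMI was found in 0.508% of nuclei. It was at 47.4 CPM in OPC and 38.8 in Astro, and at 3.77 CPM in RGL.

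Some differences between neighbouring clusters had opposite signs in w4 and w8, each beyond its counting intervals, and the difference between the weeks was not tested. The log2 ratio of Kcnq3 in GCyoung over GCimm2 was -0.14 in w4 and 0.49 in w8, and in GCmat2 over GCmat1 it was 0.19 in w4 and -0.16 in w8. For Kcnma1 in GCmat1 over GCyoung, the log2 ratio was -0.13 in w4 and 0.10 in w8. None of these changes was called.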

How the results depend on the processing

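Clusters of the same library were paired through the library term of the fit. Between weeks, no paired analysis was possible because each week was 1 pool. Among 172 called changes of 50 genes that the text could name, 1864 alternative values were computed, of which 1516 kept the direction and the call, 347 kept the direction and lost the call, and 1 reversed (Kcnc2, GCmat1 against NB1, -2.18 to 0.30 with 1 library left out, the highest without w4). Mean log2 values per nucleus, a scale that compresses the changes of low genes and was read by size alone, lost 134 calls and gave 7 genes for RGL against Astro, 3 for NPC, 4 for NB1, 1 for NB2, 3 for GCimm1, 4 for GCimm2, 6 for GCyoung, 0 for GCmat1 and 5 for GCmat2 (each against the cluster before it), and 16 for GCmat1 against NB1. DESeq2 gave 4 genes for NB2, 18 for GCimm1, 19 for GCyoung and 2 for GCmat1. Without the library term, NB2 and GCmat1 had 4 each. Thinned to 2000 UMIs, RGL against Astro had 10, GCmat1 4 and GCmat2 7. Leaving out 1 library gave 11 to 18 for RGL against Astro, 18 to 27 for NPC, 21 to 30 for NB1, 3 to 9 for NB2, 15 to 32 for GCimm1, 10 to 25 for GCimm2, 7 to 35 for GCyoung, 3 to 6 for GCmat1, 8 to 13 for GCmat2 and 33 to 39 for GCmat1 against NB1. With at least 30 nuclei per sum, RGL against Astro gave no value. Genes with their highest level in RGL and GCimm1 numbered 3 each with mean log2 values, those in NB2 3 with mean log2 values or thinned, and those in NB1 and GCimm2 2 each with libraries weighted equally. Leaving out 1 library gave 1 to 3 for NB1 and 3 to 5 for NB2. The peak cluster was the same for 49 to 58 of 63 genes under the alternatives. The cause of these changes was not tested. The 101 calls of the partner list ranged from 76 to 108. Depth limits the genes under about 10 CPM in clusters of under 100 nuclei.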

Other observations

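The rise of Kcnip4 in GCimm2 was uneven between nuclei. At 2000 CPM per nucleus, a level set after the values were seen, 135 of 545 GCimm2 nuclei of w2 (24.8%) were above it and held 7239 of the 8853 Kcnip4 UMIs of that cluster and library. Their median pseudo-time was 21.0, and that of the other nuclei was 19.6. In w4, 34 of 406 GCimm2 nuclei were above it and held 849 of 1517 UMIs. In GCyoung of w4 it was exceeded by 1898 of 1979 nuclei (95.9%), and in GCmat1 of w8 by 2926 of 2927. The level did not part the nuclei cleanly, since 142 GCimm2 nuclei of w2 and 211 GCyoung nuclei of w4 lay within a factor of 2 of it. Whether the nuclei above it form a separate group was not tested. In NB1 of w2, where the library mean of Kcnip4 exceeded that of w1, 29 of 956 nuclei were above the level and held 1108 of 1529 UMIs, at a median pseudo-time of 10.7 against 13.4 for the others.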
